A study of Mus musculus with 7 samples.

Results

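The interleukin-1 (IL-1) and interleukin-18 (IL-18) genes examined here are 9 genes, chosen by symbol: the ligands Il1a, Il1b and Il18, the receptor antagonist Il1rn, the IL-1 receptor genes Il1r1, Il1r2 and Il1rap, and the IL-18 receptor genes Il18r1 and Il18rap. All 9 were found by name among the 25469 genes with a read in the deposited series table, out of 47729 genes in the count files. They were followed in splenic CD4+CD25+ cells, the isolate used as regulatory T cells (Tregs), from 3 wild-type mice of 18 months (aged) and 4 wild-type mice of 8 weeks (young). The study's methods give the young animals as a little older than the sample labels do. The mice were male and of the C57BL/6 strain. None of the mice carried a transgene or, as far as the labels go, received a treatment. How the cells for sequencing were taken is not stated apart from the 2 surface markers. The study names a regulatory T cell isolation kit for its transfused cells. Each library is a bulk sample in which other splenic cells can remain. The terms aged Tregs and young Tregs below name these isolates as a whole, with any other cells in them.

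IL-1 beta and IL-1 alpha are inflammatory cytokines that act through the same receptor, IL-1R1, which signals only after it has recruited the accessory protein encoded by Il1rap. Both ligands are held in check by IL-1Ra, the product of Il1rn, which occupies IL-1R1 without signalling, and by IL-1R2, a decoy that binds the ligands but lacks the intracellular domain needed to signal. IL-18 acts through its own pair, a binding chain encoded by Il18r1 and an accessory chain encoded by Il18rap, and is best known for driving interferon gamma in T and NK cells. IL-1 beta and IL-18 are made as precursors that caspase-1 cuts. Il1b is typically transcribed by myeloid cells, whereas Il1r2 and the IL-18 receptor genes are known in Tregs, above all in activated and tissue Tregs.

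The libraries held 10734234 to 11244060 reads on genes in the aged and 12039894 to 13649310 in the young group, so that the shallowest young library held more reads than the deepest aged library. Foxp3, Cd4 and Il2ra were read in every library, at 3309 (Il2ra in aged replicate 2) to 9762 reads (Il2ra in young replicate 2). Scaled to a common library size (CPM), Cd4 was at 434 to 446 in aged and 493 to 633 in young libraries. Il2ra was at 327 to 481 in aged and 471 to 684 in young libraries. Foxp3 was at 447 to 622 in aged and 394 to 518 in young libraries. Transcripts of other cells were read as well. Haemoglobin genes took 1.24% to 13.1% of the gene reads, without a separation of the ages. Mitochondrial genes took 5.08% to 10.7% in aged and 2.63% to 3.23% in young libraries, so that this share moved with age.

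In the aged isolates the transcripts of the IL-1 decoy receptor and IL-1 beta rose the most. Those of the antagonist and both IL-18 receptor chains rose as well. No call was made for the signalling IL-1 receptor, its accessory chain or IL-18 itself. Of the 8 genes that passed the filter on low counts, 5 were called (edgeR's quasi-likelihood test, Benjamini-Hochberg adjusted p under 0.05) and all 5 were higher in aged Tregs. Over all 13904 genes tested, 16.7% were called in either direction, 9.8% higher (1362 genes) and 6.94% lower (965 genes), a split that turned to 1203 higher and 1483 lower when trends over GC content and gene length were removed. The median log2 fold change, aged over young, was 0.85 over the 8 genes and 0.02 over all genes tested. All 8 reached the filter's minimum in every library, so that none was tested through the aged group alone. Il1a, with 4 to 15 reads per library, did not pass. The count of 5 fell to 4 without aged replicate 3 or without young replicate 4, and to 3 without young replicate 3.

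**Figure D1:**
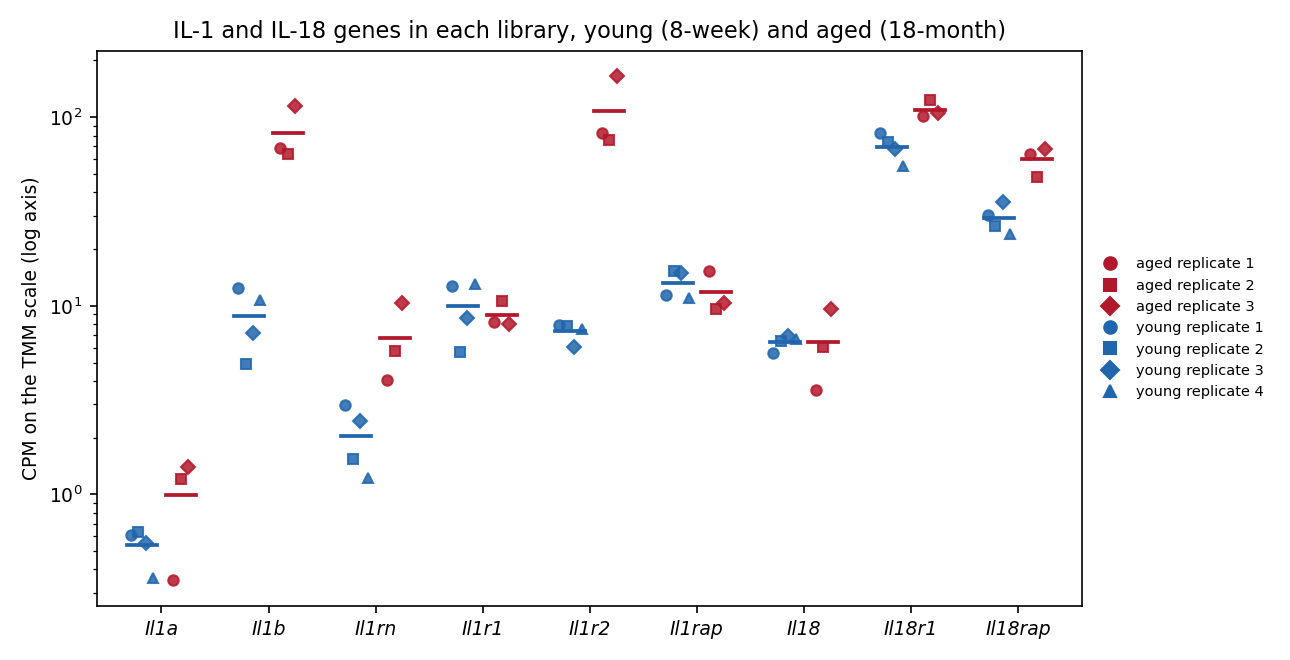
CPM (read counts scaled to a common library size, on a log axis) of the 9 genes in each library, with young libraries in blue, aged libraries in red, one marker shape per replicate and a bar at the group mean. Aged and young points are apart for Il1b, Il1r2, Il1rn, Il18r1 and Il18rap and overlap for the other 4 genes. Of all genes tested, 29.9% were apart in this way.

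Upstream sequence is shown for the 3 called genes to which RefSeq gives a single start, Il1b, Il1r2 and Il18rap, so that a ligand, the decoy and an accessory chain can be read side by side. Il1rn, which rose by more than Il18rap, has several RefSeq starts and is not shown. The RefSeq start of Il1r2 lies inside the longer gene span that GENCODE gives. Each run holds the 250 bases before that start on the strand of the gene, from RefSeq on GRCm38.p6, and capitals mark a match to 1 of 5 motifs. Il1b lies at chr2:129371140-129371389 (minus strand), Il1r2 at chr1:40085843-40086092 and Il18rap at chr1:40515112-40515361 (both plus strand).
Il1b: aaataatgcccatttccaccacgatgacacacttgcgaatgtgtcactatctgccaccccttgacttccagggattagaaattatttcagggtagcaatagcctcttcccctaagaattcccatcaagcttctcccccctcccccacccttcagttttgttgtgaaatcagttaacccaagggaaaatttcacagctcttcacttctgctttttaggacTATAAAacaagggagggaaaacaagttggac
Il1r2: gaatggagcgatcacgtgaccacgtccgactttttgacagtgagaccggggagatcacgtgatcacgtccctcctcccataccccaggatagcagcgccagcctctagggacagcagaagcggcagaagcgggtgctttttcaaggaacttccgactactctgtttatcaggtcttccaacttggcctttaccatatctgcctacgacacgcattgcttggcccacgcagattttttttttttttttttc
Il18rap: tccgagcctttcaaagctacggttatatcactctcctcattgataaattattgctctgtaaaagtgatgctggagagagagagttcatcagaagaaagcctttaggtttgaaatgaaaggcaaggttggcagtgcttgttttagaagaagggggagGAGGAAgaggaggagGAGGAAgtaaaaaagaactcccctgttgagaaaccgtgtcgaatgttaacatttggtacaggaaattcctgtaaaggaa
The motifs, searched on both strands, were an AP-1 motif (TGANTCA), a PU.1 motif (GAGGAA), a C/EBP motif (TTGCNNAA), a TATA box (TATAAA) and the octamer (ATGCAAAT). No 2 matches overlapped in these windows. The Il1b window held the TATA box, 31 to 26 bases before the start, which 12.4% of the 32851 mouse promoter windows of this length hold. The Il18rap window held the PU.1 motif 2 times, and 23.3% of windows hold it at least once. None of the 5 was spelled out in the Il1r2 window. A match is only a run of letters, and binding was not measured.

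Il1b (ENSMUSG00000027398) lies on chromosome 2 from 129364570 to 129371139 of GRCm38, on the minus strand. Its level, in CPM (read counts scaled to a common library size), was 68.8, 63.4 and 114.5 in the aged libraries, in the order of their replicate numbers, and 12.4, 4.91, 7.19 and 10.7 in the young libraries. The lowest aged value was thus well above the highest young value, and aged replicate 3 stood highest. The fitted log2 fold change was 3.23 (standard error 0.329), a rise of 9.38-fold, with an adjusted p of 0.0011 from edgeR, and the 7 fits that each omitted a library gave 2.91 to 3.44. Of the Il1b exon length, 1.31% overlaps the antisense gene Il1bos, which was read at most 7 times in a library. By their naming the counts were made without strand, so that reads of the 2 genes cannot be told apart there.

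Il1a (ENSMUSG00000027399), the alarmin of the pair, lies on the same chromosome from 129299610 to 129309972. Its reads numbered 4, 12 and 15 in aged mice and 7, 9, 7 and 5 in young mice, and aged replicate 1 held the lowest level of all. The mean log2 difference, aged minus young, was 0.44 with 0.5 CPM added (exact permutation test, two-sided, p = 0.286), and edgeR without the filter on low counts put the log2 fold change at 0.83 (adjusted p = 0.398). A difference was not detectable at this depth. Of its exon length, 11.2% overlaps exons of Gm14023 on the other strand.

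Il1rn (ENSMUSG00000026981), the natural antagonist, lies on chromosome 2 from 24336853 to 24351494. Its CPM was 4.02, 5.74 and 10.4 in the aged group and 2.97, 1.54, 2.45 and 1.22 in the young group. The groups did not overlap, but the gap between the nearest values was small, and such separation was seen for 29.9% of all genes tested. On the log2 scale the fitted rise was 1.72, with a standard error of 0.404 and an edgeR adjusted p of 0.0237. The call was lost without aged replicate 3 (1.26, adjusted p = 0.0875), without young replicate 3 (1.82, adjusted p = 0.0527) and without young replicate 4 (1.54, adjusted p = 0.0628).

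Il18 (ENSMUSG00000039217), on chromosome 9 from 50554827 to 50581840, was at 3.58, 6.04 and 9.64 CPM in aged and at 5.59, 6.52, 6.95 and 6.67 CPM in young Tregs. The young libraries were close together, and the aged libraries lay on both sides of them. The log2 fold change was -0.01, with a 95% interval from -0.70 to 0.68 and an adjusted p of 0.993 from edgeR, an interval that leaves room for a rise or fall of more than 1.5-fold. Its sign changed with the library left out, from -0.42 without aged replicate 3 to 0.28 without aged replicate 1.

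Among the receptors, the decoy and the signalling receptor went apart. Il1r2 (ENSMUSG00000026073), on chromosome 1 from 40074079 to 40125231, reached 82.7, 75.7 and 165.5 CPM in the 3 aged mice, against 7.95, 7.85, 6.08 and 7.53 CPM in the 4 young mice. The young values were tightly grouped, with 77 to 112 reads, and every aged value was far above them. The fit gave a 14.7-fold rise, 3.87 on the log2 scale with a standard error of 0.282 (edgeR adjusted p = 0.00033), and lay between 3.43 and 4.07 over the fits without one library. Il1r1 (ENSMUSG00000026072), which starts 151 kb further along the same strand, was at 8.21, 10.6 and 8.05 CPM in aged and at 12.7, 5.68, 8.61 and 13.0 CPM in young Tregs. All 3 aged values fell inside the young range. Its log2 fold change was -0.16 (95% interval -0.82 to 0.51, adjusted p = 0.753 from edgeR).

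Il1rap (ENSMUSG00000022514), the accessory chain shared by the receptors of IL-1, IL-33 and IL-36, lies on chromosome 16 from 26581704 to 26730117. It was at 15.4, 9.67 and 10.4 CPM in aged and at 11.4, 15.2, 14.9 and 11.04 CPM in young Tregs, with overlapping groups and a log2 fold change of -0.15 (95% interval -0.63 to 0.32, adjusted p = 0.659 from edgeR). Of the Il1rap exon length, 4.86% overlaps exons of Gm20319. A rise of the size seen for Il1r2 lies outside the intervals of both Il1r1 and Il1rap.

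**Figure D2:**
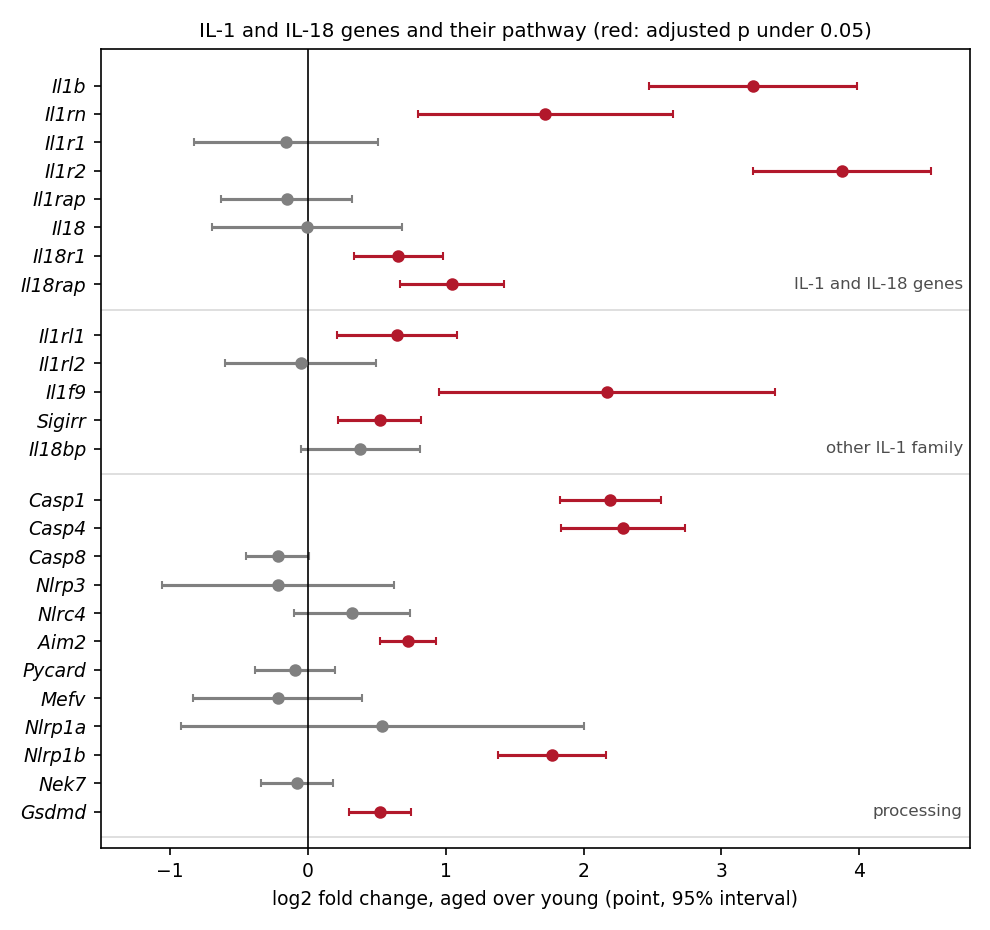
Log2 fold change, aged over young, with its 95% interval, for the 8 genes tested, the other IL-1 family genes and the genes of cytokine processing. Red points had an adjusted p under 0.05, among them Il1f9, which was tested through the aged group. Il1r2 and Il1b lie at 3.87 and 3.23, and the intervals of Il1r1, Il1rap and Il18 include 0.

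Both chains of the IL-18 receptor rose. Il18r1 (ENSMUSG00000026070), the binding chain, on chromosome 1 from 40465552 to 40500854, was at 101.3, 122.7 and 105.4 CPM in aged and at 82.2, 73.5, 67.4 and 55.3 CPM in young Tregs. The rise was 0.66 on the log2 scale, with a standard error of 0.14 (edgeR adjusted p = 0.0169). Of the 7 fits without one library, only that without young replicate 3 lost the call (0.64, adjusted p = 0.0528). Il18rap (ENSMUSG00000026068), the accessory chain, on chromosome 1 from 40515362 to 40551705, was at 63.8, 48.0 and 68.2 CPM against 30.3, 26.4, 35.4 and 24.2 CPM. This rise, 1.05 on the log2 scale with a standard error of 0.165 (edgeR adjusted p = 0.00513), was called in all 7 such fits. For both chains every aged library was above every young one, beside 29.9% of all genes tested whose ages did not overlap.

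A test of each gene alone, without information from other genes, cannot fall under 0.0571 with 3 against 4 libraries (exact permutation test, two-sided). Il1b, Il1rn, Il1r2, Il18r1 and Il18rap each reached that smallest value. Any gene whose ages do not overlap reaches it, as 29.9% of all genes tested did, so this restates the separation. Il1r1 had a p of 0.8, Il1rap of 0.4 and Il18 of 0.686 in the same exact test.

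Levels of different genes were compared as CPM per kilobase of exon. In young Tregs Il18r1 was the most abundant of the 9, at 14.4 ± 2.34 (SD, n = 4), followed by Il18 at 6.24 ± 0.569, Il1b at 4.61 ± 1.77, Il18rap at 4.30 ± 0.73 and Il1r2 at 3.85 ± 0.454. Among these, Il1b, Il18rap and Il1r2 lay within their spread of each other, and Il18 was above Il1b by less than the SD of Il1b. Il1r1 (1.57 ± 0.549) and Il1rap (1.16 ± 0.193) also lay within their spread, and Il1rn (0.369 ± 0.146) and Il1a (0.273 ± 0.0631) were the lowest. In aged Tregs Il1r2 came first, at 56.6 ± 26.2 (SD, n = 3), and Il1b second, at 43.1 ± 14.7, a difference smaller than their spread. Il18r1 followed at 22.8 ± 2.36, Il18rap at 8.89 ± 1.57 and Il18 at 6.23 ± 2.95, these last 2 differing by less than the SD of Il18, while Il1r1 (1.41 ± 0.222), Il1rn (1.21 ± 0.595) and Il1rap (1.04 ± 0.274) could not be ordered beyond their spread and Il1a (0.5 ± 0.284) was again at the low end.

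Ratios of these per-length levels, taken within each library and given without a test, show how the balance of the genes shifted. The decoy to signalling receptor ratio, Il1r2 to Il1r1, was 33.6, 23.9 and 68.6 in the aged group and 2.09, 4.61, 2.36 and 1.93 in the young group. The decoy transcript was thus the more abundant of the pair in every library, and by far more so in the aged ones. The antagonist to ligand ratio, Il1rn to Il1b, went the other way, at 0.0201 to 0.0312 in aged and 0.0393 to 0.117 in young libraries. Il1rn rose, but by less than Il1b, so that every aged library held less antagonist transcript per Il1b transcript than every young library. Young replicate 4, at 0.0393, was the young library nearest to the aged range. Against the other ligand the antagonist ratio was higher in aged mice on average, with overlapping groups: Il1rn to Il1a was 4.10, 1.69 and 2.64 in the aged and 1.73, 0.872, 1.58 and 1.21 in the young group, a mean log2 difference of 1.02. Il1b to Il1a was 54.3 to 204 in aged and 8.05 to 30.8 in young libraries, and both ratios rest on the few reads of Il1a. The ratio of the accessory to the binding chain of the IL-18 receptor, Il18rap to Il18r1, was 0.279 to 0.462 in aged and 0.256 to 0.374 in young libraries, and these ranges overlapped.

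**Figure D3:**
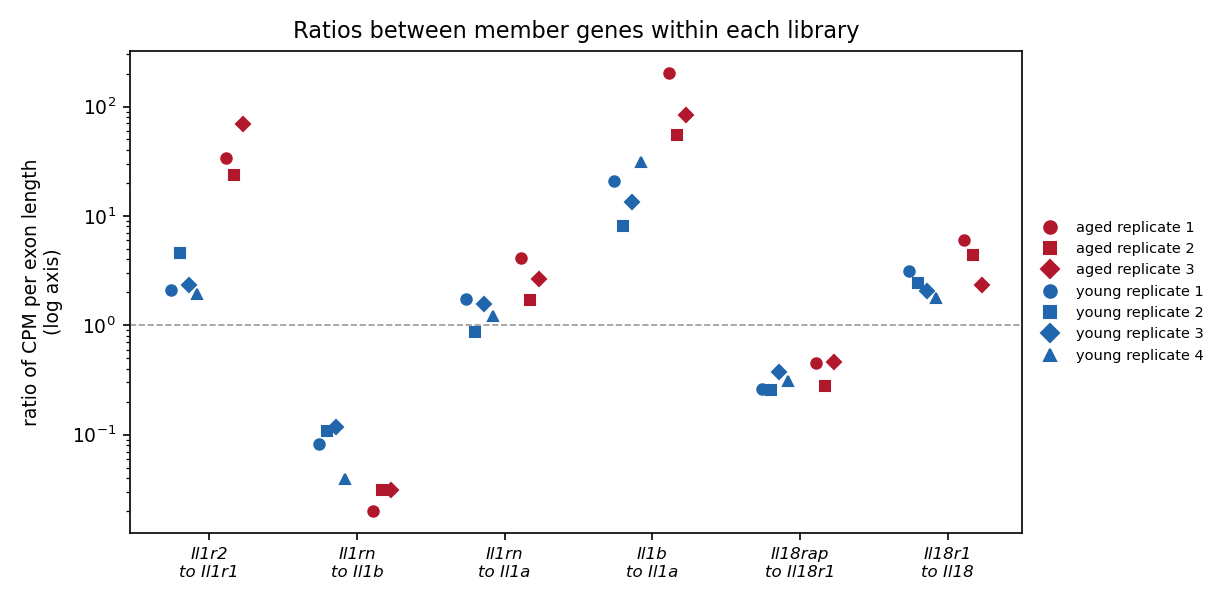
Ratios between 2 genes within each library, from CPM per exon length, on a log axis (aged libraries in red, young in blue, one point per library, dashed line at equal levels). The aged points lie above the young points for Il1r2 to Il1r1 and Il1b to Il1a, below them for Il1rn to Il1b, and within reach of them for the other 3 ratios.

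Around the IL-1 ligand genes on chromosome 2, in map order, Gm14023, Il1a, Gm25703, Gm14039, Il1b and Il1bos were annotated, and of these only Il1b had enough reads to be tested. Il1r2, Il1r1, Il1rl2, Il1rl1, Il18r1 and Il18rap lie in this order on chromosome 1, all on the plus strand, within 478 kb. The rises were not even along this stretch. Il1r2 at its start rose the most, the next genes, Il1r1 and Il1rl2, the receptor for IL-36, had log2 fold changes of -0.16 and -0.05 and were not called, and the 3 genes at the far end rose by 0.65 to 1.05. Il1rl1, which encodes the IL-33 receptor ST2 of tissue Tregs, was at 23.0 to 33.3 CPM in aged and 14.6 to 22.0 CPM in young libraries. Its rise of 0.65 on the log2 scale, with a standard error of 0.189, only just passed (edgeR adjusted p = 0.0498), and 1 of the 7 fits without one library kept the call. Gm37347, a transcript of unknown coding potential inside an Il1r2 intron, was read 72, 13 and 19 times in aged libraries and 1 or 2 times in young libraries, and no young library reached the minimum of the filter on low counts, so that Gm37347 was tested only through the aged libraries, and its call is not used here. Reads of Gm37347 and of unspliced Il1r2 RNA cannot be told apart in these counts. Gm16894, antisense to Il1r2, was read 8 to 20 times in aged and 1 to 6 times in young libraries and was not tested.

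**Figure D4:**
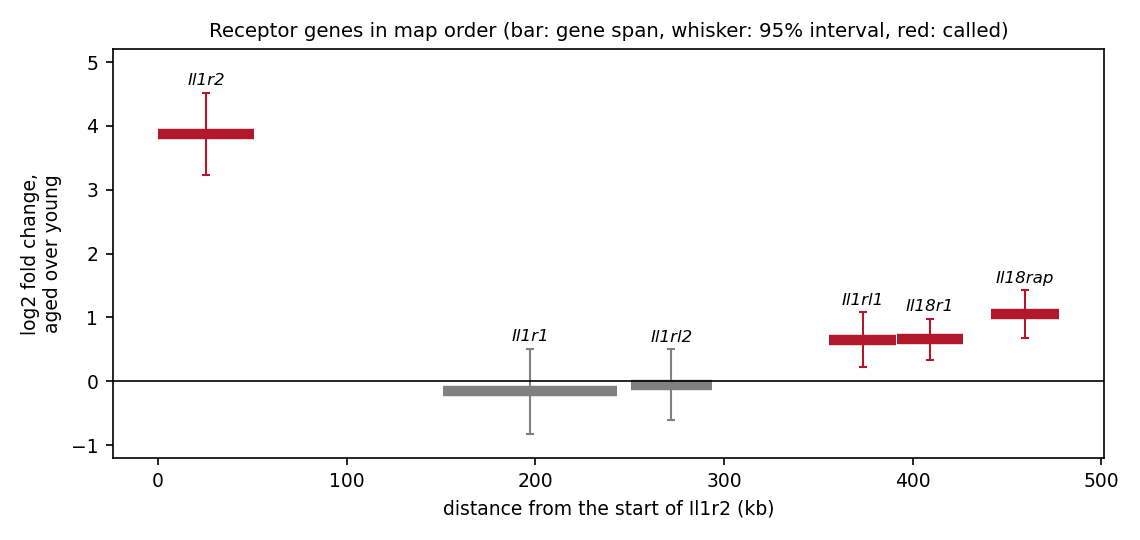
Log2 fold change, aged over young, of the 6 receptor genes against distance from the start of Il1r2 in kb. Bars span each gene, whiskers are 95% intervals and red genes had an adjusted p under 0.05. Il1r2 at one end stands highest, Il1r1 and Il1rl2 lie near 0, and Il1rl1, Il18r1 and Il18rap lie between 0.65 and 1.05.

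The other members of the family were given as a list of 12, of which 7 had a read and 5 were tested. One of the 5, Il1f9, which encodes IL-36 gamma, had 58, 39 and 29 reads in aged mice and 12, 5, 4 and 24 reads in young mice. Only 2 of the 4 young libraries reached the filter's minimum for Il1f9, so that it was tested through the aged group, and its call is not used here. Of the other 4 genes, 2 were called, both higher in aged Tregs, beside 16.7% of all genes tested: Il1rl1 and Sigirr, an inhibitory receptor that dampens IL-1 and IL-18 signalling. Sigirr was at 150.5, 163.4 and 169.5 CPM in aged and 94.2 to 137.3 CPM in young libraries, a rise of 0.52 on the log2 scale with a standard error of 0.132 (edgeR adjusted p = 0.0305) that 2 of the 7 fits without one library kept. Il18bp, the secreted inhibitor of IL-18, was at 7.86 to 12.7 CPM in aged and 7.43 to 8.82 CPM in young libraries and was not called (adjusted p = 0.201). Il33 was read 1 to 7 times per library, Il1f8 was not tested either, and Il1f5, Il1f6, Il1f10, Il1rapl1 and Il1rapl2 had no read in any library.

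Of 12 genes that process the cytokines or sense the signal for it, all were tested. For Nlrp1a only 2 of the 4 young libraries reached the filter's minimum, and it is left out of the count. Of the other 11 genes, 5 were called, all higher, beside 16.7% of all genes tested called in either direction and 9.8% called higher. Casp1, which cuts the precursors of IL-1 beta and IL-18, was at 77.6, 96.9 and 108.3 CPM in aged and 16.2, 22.9, 19.6 and 23.5 CPM in young Tregs (a log2 rise of 2.20 with a standard error of 0.16, edgeR adjusted p = 0.00033). Casp4, the caspase of the noncanonical inflammasome, rose by 2.28 (adjusted p = 0.000555), Nlrp1b, an inflammasome sensor, by 1.77 (adjusted p = 0.000863), Aim2, a sensor of DNA, by 0.73 (adjusted p = 0.00179), and Gsdmd, the pore through which mature IL-1 beta leaves the cell, by 0.52 (adjusted p = 0.0104). These 5 were called in each of the 7 fits without one library. Nlrp1b has near-identical relatives beside it, and its reads may be split among them. Nlrp3 (log2 fold change -0.22) and the adaptor Pycard (-0.09) were not called.

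Of 18 genes tested in a list of 19 that carry the signal from the receptors, only Peli2, an E3 ligase that acts on IRAK proteins, was called, and it was lower (3.73 ± 1.08 CPM, SD, n = 3, against 7.05 ± 0.763 CPM, SD, n = 4, log2 fold change -0.92, adjusted p = 0.033 from edgeR, called in 2 of 7 fits without one library). The log2 fold change of Myd88, the adaptor of both receptor systems, was 0.11, of Irak1 0.03, of Irak4 -0.06 and of Traf6 -0.48 (adjusted p = 0.527, 0.858, 0.8 and 0.0862). This count of 1 in 18 stands beside 16.7% called over all genes tested. The median log2 fold change was 0.02 over this list and 0.02 over all genes tested.

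Of 12 genes known to be induced by IL-1 or IL-18, 8 were tested. One of them, Ptgs2, which encodes cyclooxygenase-2, was at 6.90, 3.62 and 13.9 CPM in aged and 0.701 to 3.15 CPM in young libraries. As 2 of the 4 young libraries reached the filter's minimum for Ptgs2, it was tested through the aged group, and its call is not used here. Of the other 7 genes, 1 was called, Cxcl2, a neutrophil chemokine, a share near the 16.7% of all genes tested. Cxcl2 was at 42.8, 24.9 and 24.5 CPM in aged and 6.55 to 11.2 CPM in young libraries (log2 fold change 1.92, adjusted p = 0.00258 from edgeR). Ifng, the classical product of IL-18 stimulation, was at 4.89 to 5.80 CPM in aged and 2.08 to 5.26 CPM in young libraries and was not called (adjusted p = 0.179). Nfkbia, a feedback inhibitor of NF-kB, had a log2 fold change of -0.60 (adjusted p = 0.0602).

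Markers of other cells that express Il1b, Il1rn and Il1r2 were read in the same libraries. All 14 neutrophil markers had a read in every library. Of these 14, 5 were called higher and none lower, beside 9.8% of all genes tested called higher and 6.94% called lower. Their summed level was 5875, 2109 and 784 CPM in aged replicates 1 to 3 and 344 to 1091 CPM in young libraries. The 5 called were S100a8, S100a9, Retnlg, Cxcr2 and Csf3r. In all 3 aged libraries S100a9, Retnlg, Mmp9, Cxcr2 and Csf3r, 5 of the 14, lay above every young library, beside 29.9% of all genes tested whose ages did not overlap. Csf3r, the receptor for the neutrophil growth factor G-CSF, was at 68.2, 49.9 and 53.1 CPM in aged and 8.90 to 22.7 CPM in young libraries, and Cxcr2, a chemokine receptor, at 23.4, 12.5 and 11.6 CPM in aged and 2.24 to 6.12 CPM in young libraries. Both were called in each of the 7 fits without one library. The other 9 markers were not called. Of these, Ly6g, Mmp8, Mmp9, Camp, Ltf, Lcn2 and Ngp had log2 fold changes of 1.69 to 2.20 (adjusted p = 0.0627 to 0.136 from edgeR) and Mpo and Elane of -0.08 and -0.14. The ranges of the sum overlapped between the ages. The 16 monocyte or macrophage markers summed to 512 to 766 CPM in aged and 602 to 731 CPM in young libraries. Of these 16, 1 was called higher (Cd14) and 4 lower (Csf1r, Adgre1, Mertk and Vcam1), beside the same 9.8% and 6.94% of all genes tested. The 10 dendritic cell markers summed to 51.5 to 71.0 CPM in aged and 83.0 to 103.4 CPM in young libraries. Among them 1 was called higher (Zbtb46) and 4 lower, again beside 9.8% and 6.94% of all genes tested. Cd209a was at 0 in at least 1 library. The 7 NK cell markers, which belong to cells with high Il18rap, summed to 39.9 to 55.4 CPM in aged and 57.0 to 88.1 CPM in young libraries. Klrb1c and Klrd1 among them were called lower, beside 6.94% of all genes tested. The 10 Treg markers summed to 3179 to 3681 CPM in aged and 2462 to 4028 CPM in young libraries. Lrrc32 and Gpr83 among these 10 were called lower, beside the same 6.94%. Of the remaining lists, the 5 platelet markers summed to 23.0 to 42.5 CPM in aged and 10.7 to 18.4 CPM in young libraries, with Ppbp called higher. The 7 basophil or mast cell markers, 3 of them tested, summed to 2.71 to 7.96 CPM in aged and 6.59 to 35.5 CPM in young libraries, with Cpa3 called lower. Plasma cell (1 of 5 called higher, Prdm1), CD4 T cell (1 of 7 called higher, Cd3e), B cell, CD8 T cell and erythroid marker sums overlapped between the ages. The calls in these remaining lists also stand beside 9.8% of all genes tested called higher and 6.94% called lower. In such bulk libraries, more cells of a type and more RNA per cell cannot be told apart, and the part of each cell type in the rise of these genes was not tested.

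**Figure D5:**
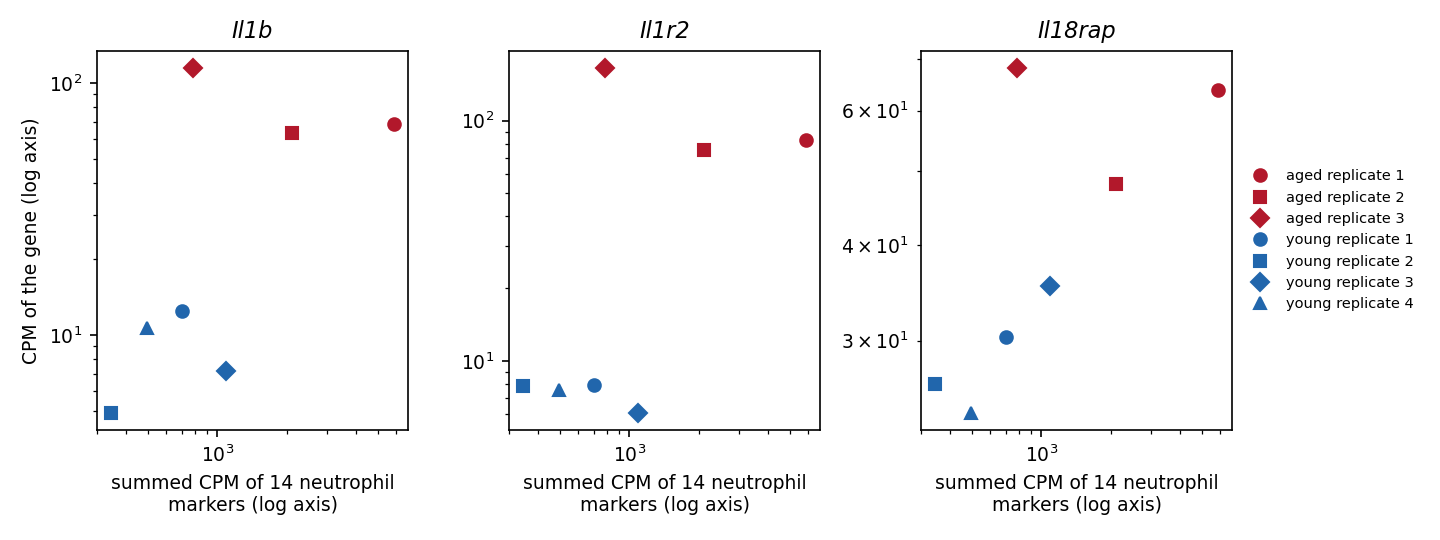
CPM of Il1b, Il1r2 and Il18rap against the summed CPM of 14 neutrophil markers in the same library, both on log axes (aged in red, young in blue). The sum is inside the young range of 344 to 1091 CPM in aged replicate 3 (784 CPM), so that the sums of the 2 ages overlap. It lies above that range in aged replicates 1 and 2 (5875 and 2109 CPM).

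The genes whose profile over the 7 libraries was most like that of Il1b, among 9426 genes with a mean log2 CPM of at least 3, were Baiap3, Il1r2, Bzrap1, Lilrb4a and Nrbp2, with a root mean square difference of 0.46 to 0.53 on the centred log2 scale. For Il1r2 they were Bzrap1, Il1b, Gpm6b, Baiap3 and Nrbp2 (0.46 to 0.49). Il1b and Il1r2 were thus second on each other's list, at 0.47. The genes on these lists had log2 fold changes, aged over young, of 3.00 (Gpm6b) to 3.87 (Il1r2). The measure includes that rise, so a place on the list does not show shared regulation. Peg13, Ccdc92, Tha1, 4930417O13Rik and Tmem181b-ps came nearest to Il18r1 (0.11 to 0.13), whose smaller rise makes small differences easier to reach.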

How the data were processed

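RNA was made into cDNA with a SMART-Seq kit, without molecular identifiers or strand. The authors deposited raw read counts per gene and library, in HTSeq-count layout (mm10 per the submitters' processing notes). The aligner is not given in the sources used here. Reads on no or several genes (13.1% to 20.9%) were left out. The authors also deposited a signal table, counts divided by a size factor per library, used here for gene symbols. Its columns of fold changes and p-values, the authors' own comparison, were not used.

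The main test was edgeR 4.0.16 under R 4.3.3 (quasi-likelihood, TMM, filterByExpr, Benjamini-Hochberg over 13904 genes). The study's methods name limma, an alternative here. CPM is on the TMM scale. Exact permutation tests took log2(CPM + 0.5). Intervals are 95% from the model. Gene models are GENCODE M21 (GRCm38, matching mm10), promoters RefSeq. Members, lists and naming rules (the family list, up to 5 called genes per pathway list, the 5 nearest profiles) were chosen with earlier results of these data known. Uncalled pathway genes were named for their roles after their values were seen. Replicates are labelled biological. The tests were also run on simulated counts with the same spread set for every gene. This checks the code, not the error rate of the tests in these libraries. Alternatives were DESeq2 1.42.0, limma 3.58.1 (voom, trend), other scalings and filters, thinning, GC content and length trends removed, a replicate block, and each library left out.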

Additional observations from a re-analysis of the deposited data

How the results depend on the processing

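Il1b, Il1r2 and Il18rap were called higher under all 19 alternative fits, with adjusted p-values up to 0.0298, 0.029 and 0.036. Il18r1 was called in 17 and Il1rn in 15 of the 19, and Il1r1, Il1rap and Il18 in none. DESeq2 on the genes that passed the filter called 3804 genes (1982 higher, 1822 lower), against 2327. DESeq2 on all genes with a read, an alternative chosen after the first DESeq2 count was seen, called 2884 (1539 higher, 1345 lower). Both called the same 5 IL-1 and IL-18 genes, as did the fit with GC content and length trends removed. Of the 43 other pathway genes tested, the main fit called 10 higher and 1 lower, with Il1f9 and Ptgs2 among the 10. Without genes tested through the aged group, 2 of 4 other family genes and 5 of 11 processing genes were called. So were 1 of 18 signalling genes and 1 of 7 induced genes, beside 16.7% of all genes tested. DESeq2 called 10 higher and 4 lower on the filtered genes, and 11 and 3 on all genes with a read. With the trends removed, 9 were called higher and 3 lower. Traf6 and Chuk, of the signalling list and not called in the main fit, were each called in 3 of the 19 alternative fits. Without one library, between 1237 (young replicate 4) and 3058 (aged replicate 1) genes were called, with 1262 without aged replicate 3, 1315 without young replicate 1 and 1270 without young replicate 3. The IL-1 and IL-18 genes called then numbered 3 to 5 and the other pathway genes 7 to 11, not always those of the fit with every library. Of the 11 called without aged replicate 1, 8 were higher and 3 lower, and 9 were shared with the fit of every library. Il1f9 and Ptgs2 stay in these pathway counts wherever they were called. Requiring a log2 change of 1 or more in size as well left 1016 genes, 4 of the 9 and 6 pathway genes, with Il1f9 and Ptgs2 among the 6.

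Same-numbered libraries did not deviate together (correlations of -0.09, -0.29 and -0.14). Differently numbered ones had correlations of -0.24 to 0.23. So few values cannot settle whether the numbers pair the samples, and the main fit took them as unpaired. The fit with the replicate number as a block called 292 genes, 3 of the IL-1 and IL-18 genes and 5 pathway genes, and put Il1r1 at 0.050 on the log2 scale (adjusted p = 0.948). Il18 changed sign at 0.0085 with at least 10 counts in every library and ranged from -0.42 to 0.28 without one library. The causes were not tested. Counting noise limits Il1a, where 3 reads, the limit of detection, are 0.21 to 0.302 CPM. Its mean log2 difference was 0.22 to 0.80 without one library.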
